A study of Mus musculus with 6 samples.

Results

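The 39 mouse Hox genes stand in 4 clusters, HoxA on chromosome 6, HoxB on chromosome 11, HoxC on chromosome 15 and HoxD on chromosome 2. Binding sites were taken from the first to the last gene of each cluster with 50 kb on either side, and every peak was counted once, by its summit. The 4 regions covered 892.1 kb and held 129 of the 123182 peaks of the series. A Hox gene was called posterior when it belonged to paralogue groups 9 to 13 and anterior when it belonged to groups 1 to 8. Of the genes, 38 are described by name.

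The peaks came from chromatin immunoprecipitation and sequencing (ChIP-seq) of tissue dissected at E13.5 from CD1 wild-type mice. The 4 groups were molar tooth germ precipitated for pSmad1/5, limb for pSmad1/5, molar tooth germ for Smad4 and limb for Smad4, with 1 library each. Both tissues were fixed in 1% formaldehyde for 15 min, and the 2 input samples were not analysed here. The labels do not say whether fore- and hindlimbs were combined or how many embryos were pooled, and both tissues hold epithelium and mesenchyme. Peak lists carry no expression levels, so the tissues could not be checked against marker genes. With 1 library per group no difference has a replicate check, and the intervals below cover counting error over peaks only.

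Hox genes encode homeodomain transcription factors that give cells their position along the body axis. They are switched on in the order in which they lie in the cluster, with anterior genes first. In the limb the posterior HoxA and HoxD genes pattern the skeleton from shoulder to digits, whereas the first pharyngeal arch, from which molars form, is known as a Hox-silent territory. pSmad1/5 is the activated form of the Smads that carry bone morphogenetic protein (BMP) signals, and Smad4 is their common partner.

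The Hox regions held 52 molar pSmad1/5 peaks and 24 limb pSmad1/5 peaks. For Smad4 the order was the opposite, with 12 molar and 41 limb peaks. The molar pSmad1/5 peaks numbered 22 in HoxA, 12 in HoxB, 6 in HoxC and 12 in HoxD, and the limb pSmad1/5 peaks 6, 7, 4 and 7. The molar Smad4 peaks numbered 5, 1, 5 and 1 in the same clusters, and the limb Smad4 peaks 10, 13, 12 and 6. In each of the 4 clusters molar therefore had more pSmad1/5 peaks than limb and fewer Smad4 peaks.

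**Figure D1:**
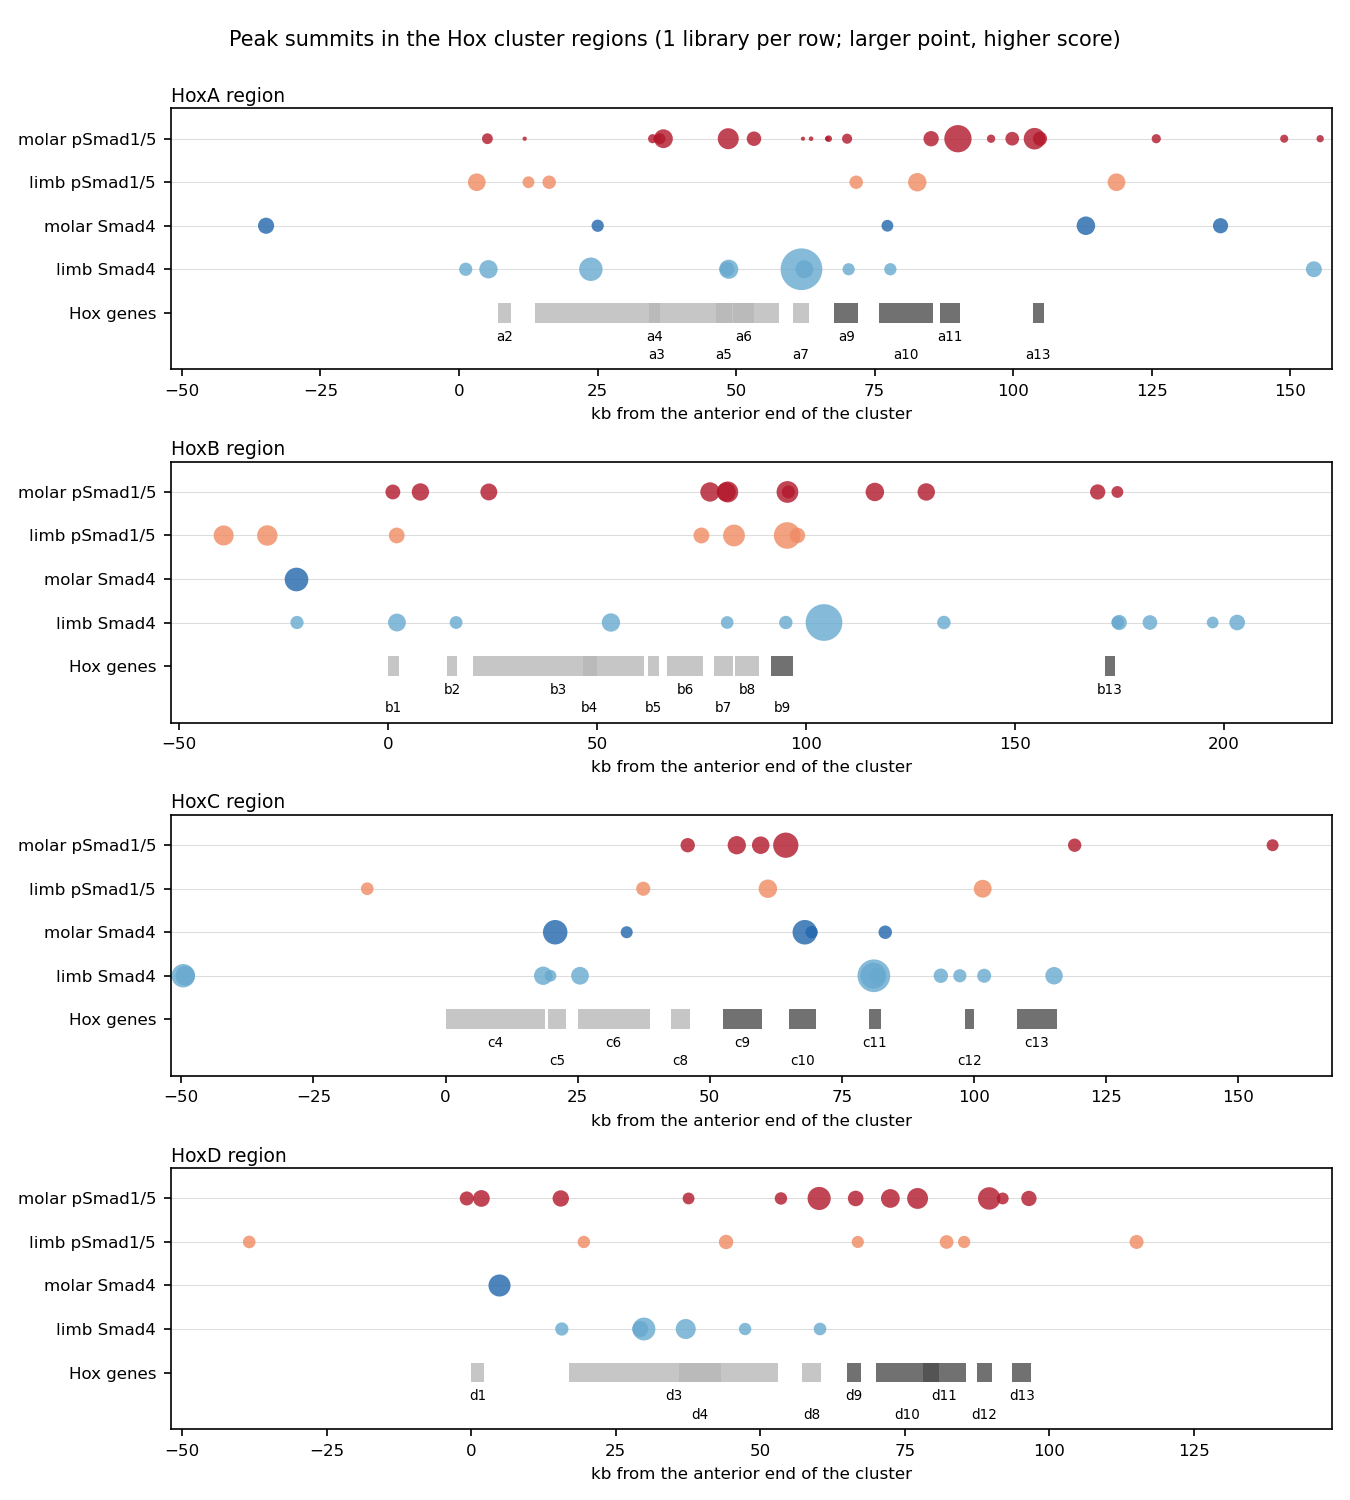
Summits along the HoxA, HoxB, HoxC and HoxD regions, in kb from the anterior end of each cluster, with 1 row per library, point area growing with the deposited score, and the 38 named genes below (dark, posterior; light, anterior). Molar pSmad1/5 points run along the posterior HoxD genes, where limb Smad4 has 0 summits and limb pSmad1/5 has 4.

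List length differed between chromosomes, so the regions were also read against their whole chromosome. The Hox regions took 0.765% of the molar pSmad1/5 peaks on chromosomes 2, 6, 11 and 15 (95% interval 0.572 to 1.00%), against 0.378% of the limb pSmad1/5 peaks (0.242 to 0.562%). They took 0.253% of the molar Smad4 peaks (0.131 to 0.442%) and 0.492% of the limb Smad4 peaks (0.354 to 0.667%). The pSmad1/5 intervals did not overlap, whereas the Smad4 intervals did. Relative to base pairs, the regions held 4.86 times the chromosomal density of molar pSmad1/5 peaks (3.63 to 6.37), 2.30 times that of limb pSmad1/5 peaks (1.47 to 3.42), 1.55 times that of molar Smad4 peaks (0.798 to 2.70) and 2.93 times that of limb Smad4 peaks (2.103 to 3.97). The clusters are dense in genes, and the share of peaks within 1 kb of a gene end also differed between whole lists, at 14.4% in molar pSmad1/5, 14.8% in limb pSmad1/5, 4.83% in molar Smad4 and 17.99% in limb Smad4. The part of gene density in these ratios was not tested.

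The molar to limb ratio of pSmad1/5 peaks was 3.67 in HoxA, 1.71 in HoxB, 1.5 in HoxC and 1.71 in HoxD, where the whole chromosomes had ratios of 2.41, 0.813, 0.692 and 0.682. The cluster ratio was thus 1.52, 2.11, 2.17 and 2.51 times that of its chromosome. For Smad4 the cluster ratios were 0.500, 0.0769, 0.417 and 0.167 against chromosomal ratios of 1.34, 0.216, 0.894 and 0.256. These were 0.372, 0.356, 0.466 and 0.652 times the chromosomal ratio. Over all listed peaks both antibodies kept their direction in all 4 clusters after this scaling. The Smad4 values of HoxB and HoxD rest on 1 molar peak each. In every cluster the molar and limb intervals of the density ratio overlapped for both antibodies. For pSmad1/5 in HoxA they were 3.23 to 7.80 and 1.24 to 7.36. The 4 clusters come from the same libraries and are no replicates, and the scaling was not repeated at a common score.

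**Figure D2:**
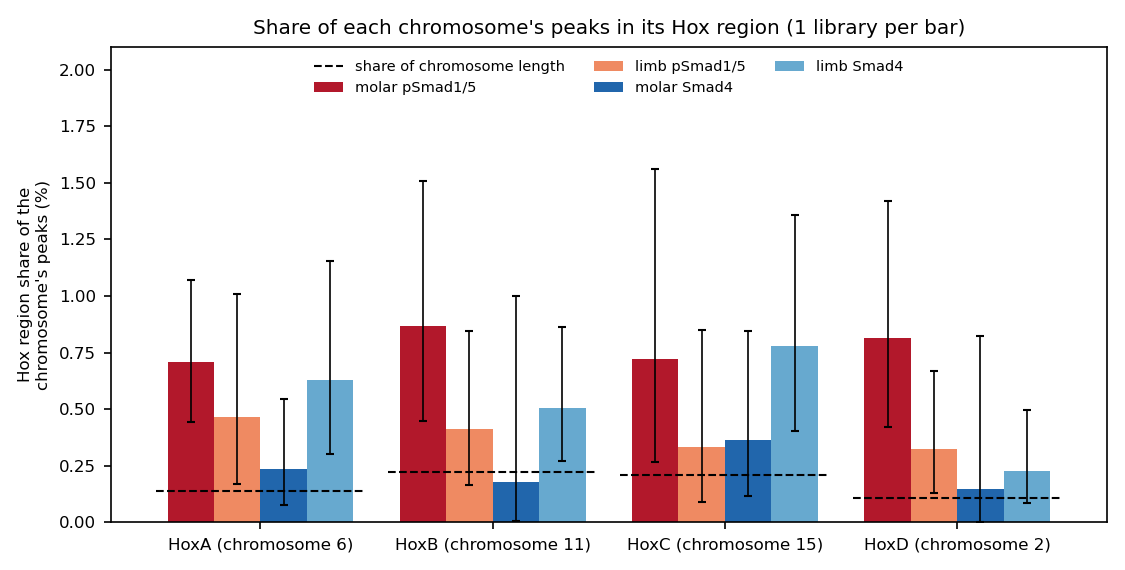
Share of the peaks of each chromosome that lie in its Hox region, in percent, with 1 bar per library, exact 95% binomial intervals as error bars and a dashed line at the region's share of chromosome length. The molar pSmad1/5 bars stand at 0.708 to 0.867%, above limb pSmad1/5 at 0.325 to 0.464% in each cluster, and molar Smad4 at 0.149 to 0.363% stands below limb Smad4 at 0.228 to 0.779%.

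The deposited enrichment score of the peak caller, the authors' own value per peak, had a median of 3.38 for molar pSmad1/5, 3.42 for limb pSmad1/5, 3.51 for molar Smad4 and 3.51 for limb Smad4 in the regions. Over the whole lists the medians were 2.9995, 3.44, 3.38 and 3.53 in the same order. The lowest score listed depended on the chromosome. It was 2, rounded down, for molar pSmad1/5 on the HoxA chromosome and 4 for molar Smad4 on the HoxB and HoxD chromosomes, and 3 for the other lists and clusters. Of the 22 HoxA peaks of molar pSmad1/5, 14 scored under 3, a range that the other 3 lists do not hold there. At a score of at least 3 HoxA had 8 molar and 6 limb pSmad1/5 peaks, and the 4 regions had 38 and 24.

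With a score of at least 4 in all lists, 9 molar and 4 limb pSmad1/5 peaks and 4 molar and 9 limb Smad4 peaks remained. HoxB then turned for pSmad1/5, with 2 molar and 4 limb peaks, and had 1 Smad4 peak in each tissue. HoxA had 3 molar and 0 limb pSmad1/5 peaks, HoxC 1 and 0, and HoxD 3 and 0. For Smad4 HoxA had 0 molar and 2 limb peaks, HoxC 2 and 4, and HoxD 1 and 2. With equal numbers of top-scoring peaks per chromosome the regions held 33 molar and 13 limb pSmad1/5 peaks and 7 molar and 19 limb Smad4 peaks. By cluster, from HoxA to HoxD, the molar pSmad1/5 peaks were then 13, 8, 6 and 6 and the limb pSmad1/5 peaks 6, 4, 3 and 0. The molar Smad4 peaks were 3, 1, 2 and 1 and the limb Smad4 peaks 8, 1, 8 and 2, so that molar and limb had the same number of Smad4 peaks in HoxB.

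**Figure D3:**
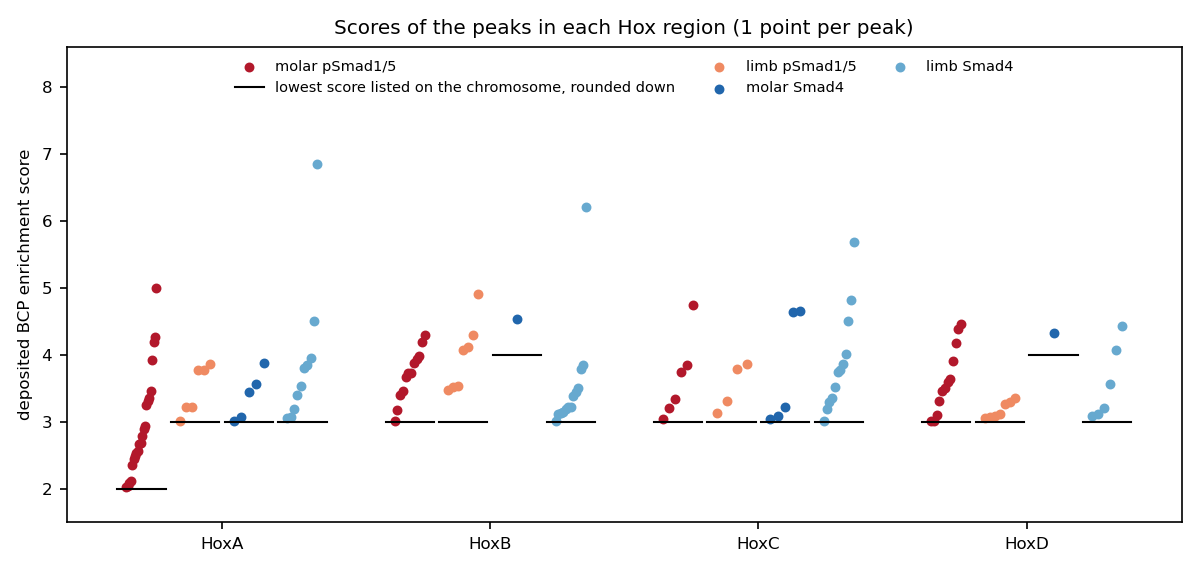
Deposited BCP enrichment score of each of the 129 peaks, by cluster and library, with a black line at the lowest score listed on that chromosome, rounded down. The highest points are limb Smad4 peaks at Hoxa7 (6.85), near Hoxb9 (6.21) and at Hoxc11 (5.69).

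Every named gene had a summit inside it or within 10 kb in at least 1 list. The share of all protein-coding genes with a summit in at least 1 list was not computed, so that count has no background. By list, 32 of 38 had such a summit for molar pSmad1/5, against 54.2% of all 21887 protein-coding genes, and 25 for limb pSmad1/5, against 47.9%. For molar Smad4 there were 14 (44.3% of all genes, 33.6% on the 4 Hox chromosomes) and for limb Smad4 29 (52.3%). On the 4 Hox chromosomes molar pSmad1/5 reached 53.3% of genes, limb pSmad1/5 53.7% and limb Smad4 59.3%. The members' shares were 84.2%, 65.8%, 36.8% and 76.3% in that order, so the molar Smad4 share was near its background. Within 1 kb the members numbered 26 for molar pSmad1/5 (68.4%), 13 for limb pSmad1/5 (34.2%), 6 for molar Smad4 (15.8%) and 21 for limb Smad4 (55.3%). The shares over all genes were 42.6%, 36.5%, 32.9% and 41.7%, and on the Hox chromosomes 40.5%, 40.7%, 24.4% and 47.3%. The limb pSmad1/5 and molar Smad4 shares were thus not above their backgrounds. Within 50 kb the members numbered 38 (100%), 37 (97.4%), 25 (65.8%) and 38 (100%). The shares over all genes were 74.9%, 68%, 68% and 71.2%, and on the Hox chromosomes 76.8%, 75.1%, 60.3% and 77.8%. The molar Smad4 share was again near its background. Neighbours share peaks: the members' molar pSmad1/5 counts sum to 108 but rest on 46 distinct peaks, and those of limb Smad4 sum to 70 and rest on 34.

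More molar than limb pSmad1/5 summits lay within 10 kb of 27 of the 38 genes, against 33.4% of all protein-coding genes and 29.1% of those on the 4 Hox chromosomes. Fewer lay near 3, namely Hoxa2, Hoxb9 and Hoxc12, where the share was 24.5% over all genes and 30.9% on the Hox chromosomes. For Smad4, fewer molar than limb summits lay near 28 of the 38, against 34.7% of all genes and 49% on the Hox chromosomes. More lay near 6, Hoxa4, Hoxa13, Hoxc8, Hoxc9, Hoxc10 and Hoxd1, against 24.5% of all genes and 713 of the 5293 on the Hox chromosomes. The median difference, molar minus limb, was 2 pSmad1/5 summits and -1 Smad4 summit per member, and 0 over all genes for both. All these counts use every listed peak. On the HoxA chromosome molar pSmad1/5 starts at a score of 2 and limb at 3, and near Hoxa9 no molar pSmad1/5 summit exceeded 2.80. Molar Smad4 starts at 4 and limb Smad4 at 3 on the HoxB and HoxD chromosomes. The shares over the Hox chromosomes pool these starts, and the comparison was not repeated at a common score.

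**Figure D4:**
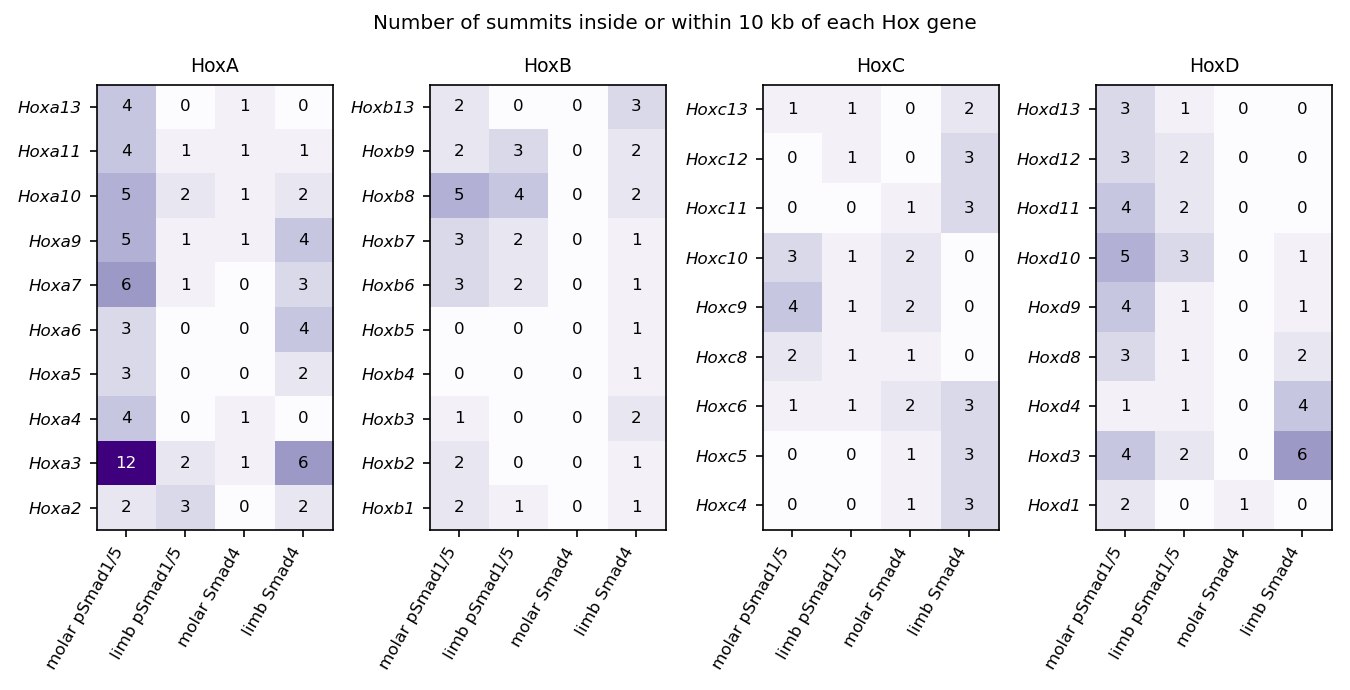
Number of summits inside or within 10 kb of each of the 38 named genes, by library, with posterior genes at the top of each cluster. Molar pSmad1/5 reaches 12 at Hoxa3, limb Smad4 has 0 at Hoxd11, Hoxd12 and Hoxd13, and molar Smad4 has 0 at every named HoxB gene. The lowest listed scores differ: in HoxA molar pSmad1/5 starts at 2 and the other lists at 3. In HoxB and HoxD molar Smad4 starts at 4 and the other lists at 3.

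The posterior HoxD genes are the regulators of forearm and digit formation. Molar pSmad1/5 had 3 summits within 10 kb of Hoxd13, 3 of Hoxd12, 4 of Hoxd11, 5 of Hoxd10 and 4 of Hoxd9. Limb pSmad1/5 had 1, 2, 2, 3 and 1 at the same genes. Limb Smad4 had 0 at Hoxd13, Hoxd12 and Hoxd11 and 1 each at Hoxd10 and Hoxd9, and molar Smad4 had 0 at all 5. The molar Smad4 list starts at 4 on this chromosome and the other lists at 3. Single summits lay 442 bp into Hoxd13 (score 3.47), 523 bp into Hoxd12 (4.38) and 746 bp past the start of Hoxd10 (3.91), all in the molar pSmad1/5 list. At Hoxd11 the limb pSmad1/5 list had summits 318 and 584 bp past a start (scores 3.08 and 3.27). At Hoxd9 the molar pSmad1/5 summit lay 877 bp and the limb pSmad1/5 summit 509 bp past the start.

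Of the 6 limb Smad4 peaks of the HoxD region, 0 were placed at posterior genes and 6 at anterior genes, a posterior share of 0% (95% interval 0 to 45.9%), where 42.8% of the region's base pairs lie nearest to posterior genes. The molar pSmad1/5 peaks there divided into 6 posterior and 6 anterior and the limb pSmad1/5 peaks into 4 and 3. The interval of the limb Smad4 share holds the share of base pairs, so at this number of peaks the difference was not detectable.

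The posterior HoxA genes, which act with HoxD in the limb, had 4 molar pSmad1/5 summits within 10 kb of Hoxa13, 4 of Hoxa11, 5 of Hoxa10 and 5 of Hoxa9. Limb pSmad1/5 had 0, 1, 2 and 1. Molar Smad4 had 1 at each of the 4, and limb Smad4 had 0, 1, 2 and 4. On this chromosome the molar pSmad1/5 list starts at a score of 2 and the limb pSmad1/5 list at 3. No molar pSmad1/5 summit counted at Hoxa9 scored above 2.80, and those counted at Hoxa10 included scores of 2.12, 2.36 and 2.80. At Hoxa11 and Hoxa13 only a molar pSmad1/5 summit of score 2.57 was under 3. The highest-scoring molar pSmad1/5 peak of all Hox regions lay inside Hoxa11, 419 bp past the start (chromosome 6, 52245357 to 52245425, score 5.00). It also lies inside Hoxa11os, the antisense RNA gene of Hoxa11. Hoxa13, the digit gene of this cluster, held molar pSmad1/5 peaks of scores 4.27 and 3.32 inside the gene, and its nearest limb pSmad1/5 summit lay 13120 bp away. Hoxa10 had a molar pSmad1/5 summit 302 bp past a start (score 3.47), and Hoxa9 a limb pSmad1/5 summit 335 bp past its start (score 3.23).

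In HoxC, Hoxc11, Hoxc12 and Hoxc13 had 0, 0 and 1 molar pSmad1/5 summits within 10 kb, and limb Smad4 had 3, 3 and 2 there. At Hoxc8, Hoxc9 and Hoxc10 molar pSmad1/5 had 2, 4 and 3 summits and limb Smad4 had 0, 0 and 0. Hoxc13 acts in hair and nail formation and Hoxc10 is a hindlimb gene. All 3 limb Smad4 summits of Hoxc11 lay inside the gene (scores 3.53, 5.69 and 4.82). A molar pSmad1/5 summit lay 588 bp beyond Hoxc10 (score 4.74), and Hoxc10 itself held 2 molar Smad4 peaks (scores 3.10 and 4.65). Hoxc4 and Hoxc5 had 1 molar Smad4 and 3 limb Smad4 summits each within 10 kb and no pSmad1/5 summit of either tissue.

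In the HoxB region molar Smad4 had 1 peak, 21985 bp beyond Hoxb1 (score 4.54), so none of the named HoxB genes had a molar Smad4 summit within 10 kb. The molar Smad4 list starts at 4 on this chromosome and the limb Smad4 list at 3. At a score of at least 4 each tissue had 1 Smad4 peak in the region. Hoxb9, a gene of the rib-bearing trunk, had the only place in the Hox regions where 3 lists met within consecutive gaps of 500 bp. There, 2 molar pSmad1/5 summits (scores 3.18 and 4.29), 1 limb pSmad1/5 summit (4.91, the highest limb pSmad1/5 score of the regions) and 1 limb Smad4 summit (3.22) spanned 613 bp (chromosome 11, 96272382 to 96273054). Hoxb13, set apart from the rest of the cluster and known from tail and prostate, had 2 molar pSmad1/5, 0 limb pSmad1/5, 0 molar Smad4 and 5 limb Smad4 peaks placed at it. Hoxb4 and Hoxb5 had a summit of a single list, limb Smad4, within 10 kb.

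Among the anterior genes Hoxa3, which acts in pharyngeal organ formation, had 12 molar pSmad1/5, 2 limb pSmad1/5, 1 molar Smad4 and 6 limb Smad4 summits within 10 kb. Its annotated interval of the RefSeq table encloses Hoxa4, Hoxa5 and Hoxa6, so summits inside those genes count for Hoxa3 too. Of its 12 molar pSmad1/5 summits only those of scores 3.92, 4.19 and 3.36 reached 3, where the other lists start on this chromosome. Hoxa4 held 3 molar pSmad1/5 summits inside the gene (scores 2.67, 2.49 and 2.94) and had no limb summit of either antibody within 10 kb. Both limb lists start at 3 on this chromosome, so these 3 summits have no counterpart range in limb. Of the 4 molar pSmad1/5 summits within 10 kb of Hoxa4, only the one of score 3.92, outside the gene, reached 3. Hoxa7 held the highest-scoring peak of the Hox regions, from limb Smad4 (chromosome 6, 52217125 to 52217178, score 6.85). Hoxd3 had 4 molar pSmad1/5, 2 limb pSmad1/5, 0 molar Smad4 and 6 limb Smad4 summits within 10 kb. Its annotated interval encloses Hoxd4, so summits inside Hoxd4 count for Hoxd3 too. On the HoxD chromosome the molar Smad4 list starts at 4 and the other lists at 3. Hoxd8 had a molar pSmad1/5 summit 345 bp (score 4.47) and a limb Smad4 summit 193 bp (3.12) past its start. Hoxa2, the selector gene of the second pharyngeal arch, had no summit within 1 kb in any list.

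Placed at their nearest gene, 29 of 52 molar pSmad1/5 peaks were posterior (55.8%, interval 41.3 to 69.5%) and 11 of 24 limb pSmad1/5 peaks (45.8%, 25.6 to 67.2%). For Smad4 there were 6 of 12 in molar (50%, 21.1 to 78.9%) and 18 of 41 in limb (43.9%, 28.5 to 60.3%). Posterior genes are nearest to 47.6% of the base pairs, which all 4 intervals hold. No preference for posterior or anterior genes was therefore detectable over the 4 clusters together. By paralogue group, 23 peaks were placed at the 4 genes of group 13, of which 16 lay in the 50 kb flanks and 7 between the first and last gene of a cluster. Group 9 had 19 over 4 genes, all 19 between the first and last gene. Group 1 had 17 over 3 genes with 7 in the flanks, and group 3 had 16 over 3 genes with 0 in the flanks. The groups differ in the length of their genes and of the gaps beside them. The share of base pairs nearest to each group was not computed, so these counts have no background and show no preference. With groups 10 to 13 as posterior the shares were 36.5% for molar pSmad1/5, 25% for limb pSmad1/5, 50% for molar Smad4 and 34.1% for limb Smad4, where 39.5% of the base pairs lie nearest to such genes.

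Overlap of at least 1 bp between lists was found at 3 genes. Inside Hoxa5, a gene of lung and cervical spine development, a molar pSmad1/5 peak of 330 bp (chromosome 6, 52203666 to 52203995, score 4.19, deposited p-value of the peak call 1.04e-11) overlapped 2 limb Smad4 peaks by 68 and 70 bp. Upstream of Hoxb13 a molar pSmad1/5 and a limb Smad4 peak overlapped by 5 bp, with summits 629 and 712 bp before the start. Inside Hoxb1, a hindbrain gene, a limb pSmad1/5 and a limb Smad4 peak overlapped by 13 bp, with summits 416 and 362 bp past the start. No Hox peak was common to molar and limb for the same antibody.

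As shares, 2 of 52 molar pSmad1/5 peaks overlapped limb Smad4 (3.85%, 0.469 to 13.2%, against 1.92% over the whole list), and 3 of 41 limb Smad4 peaks overlapped molar pSmad1/5 (7.32%, 1.54 to 19.9%, against 2.29%). In limb, 1 of 24 pSmad1/5 peaks overlapped Smad4 (4.17%, 0.105 to 21.1%, against 4.85%). Molar pSmad1/5 overlapped limb pSmad1/5 at 0 of 52 (up to 6.85%, against 1.11%), and molar Smad4 overlapped limb Smad4 at 0 of 12 (up to 26.5%, against 0.443%). From the limb Smad4 side, 1 of 41 overlapped limb pSmad1/5 (2.44%, against 3.83%) and 0 of 41 molar Smad4 (up to 8.604%, against 0.518%). Limb pSmad1/5 overlapped molar pSmad1/5 at 0 of 24 (up to 14.2%, against 1.7%) and molar Smad4 at 0 of 24 (against 0.415%). Molar pSmad1/5 and molar Smad4 overlapped at 0 of 52 (against 0.589%) and, from the Smad4 side, 0 of 12 (against 0.608%). Molar Smad4 overlapped limb pSmad1/5 at 0 of 12 (against 0.281%). The intervals hold the whole-list shares, so none of these differed detectably from the lists.

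Summits were also paired by distance. A limb Smad4 summit lay within 500 bp of 11 of 52 molar pSmad1/5 summits (21.2%, 11.1 to 34.7%), against 7.33% over the whole molar pSmad1/5 list. From the other side, 13 of 41 limb Smad4 summits had a molar pSmad1/5 summit that close (31.7%, 18.1 to 48.1%), against 8.83% over the whole list. Both lists were also dense in the Hox regions, and the part of that density was not tested. Limb pSmad1/5 came within 500 bp of limb Smad4 at 3 of 24 summits (12.5%, 2.66 to 32.4%, against 13.1%), and molar pSmad1/5 of limb pSmad1/5 at 3 of 52 (5.77%, 1.21 to 15.9%, against 4.82%). From the other sides, 2 of 24 limb pSmad1/5 summits met molar pSmad1/5 (8.33%, against 7.14%) and 3 of 41 limb Smad4 summits met limb pSmad1/5 (7.32%, against 10.8%). Molar Smad4 met limb Smad4 at 1 of 12 summits, near Hoxb1 (8.33%, against 2.56%), and limb Smad4 met molar Smad4 at 1 of 41 (2.44%, against 3.1%). Molar Smad4 met neither pSmad1/5 list, where the shares over the whole molar Smad4 list were 3.02% for molar and 1.93% for limb pSmad1/5, and those over the pSmad1/5 lists 3.01% for molar and 2.9% for limb. Groups of neighbouring summits that joined molar pSmad1/5 with limb Smad4 numbered 10, among them those at Hoxa5, Hoxa7, Hoxa9, Hoxb7, Hoxb9, Hoxb13, Hoxd3, Hoxd4 and Hoxd8.

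Among summits close to a transcription start, most lay downstream of it, in the Hox regions as in the whole lists. Of the 129, 40 lay within 1 kb of a Hox start, 30 of them downstream and 10 upstream. The share within 1 kb was 38.5% for molar pSmad1/5 (25.3 to 53.0%), 33.3% for limb pSmad1/5 (15.6 to 55.3%), 16.7% for molar Smad4 (2.09 to 48.4%) and 24.4% for limb Smad4 (12.4 to 40.3%), where such stretches make up 9.20% of the base pairs. Within 1 kb of any protein-coding start lay 2659 downstream and 1368 upstream of all 35476 molar pSmad1/5 summits. The numbers were 1635 and 901 of 23389 for limb pSmad1/5, 513 and 409 of 34561 for molar Smad4 and 2637 and 1403 of 29756 for limb Smad4. The downstream shares were thus 66.03%, 64.5%, 55.6% and 65.3% in that order. The base-pair share of such stretches over the genome was not computed. The excess over base pairs can therefore not be called particular to Hox genes.

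**Figure D5:**
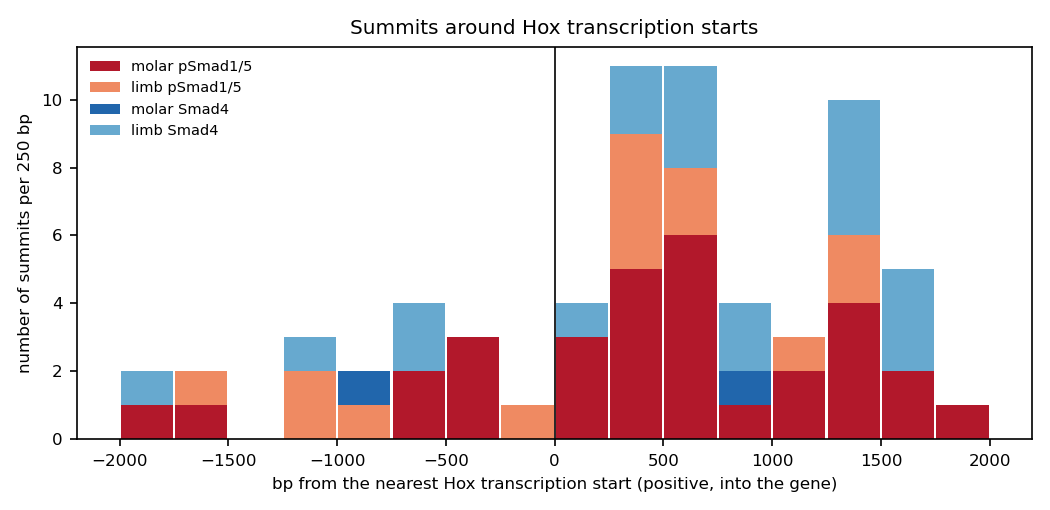
Number of summits per 250 bp around the nearest Hox transcription start, positive into the gene, stacked by library. The tallest bars, 11 summits each, are the bin from 250 to 500 bp past the start and the bin after it, and 1 summit, of limb pSmad1/5 at Hoxb7, lies in the 250 bp before it.

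RefSeq promoter windows, from 250 bases before to 50 after a start, were available for 22 of the named genes (24 windows on GRCm38.p6), Hoxb7 not among them, and 0 of the windows held a summit of any list. At Hoxb7 a limb pSmad1/5 summit lay 158 bp before the annotated start (score 4.30). Over all protein-coding promoter windows 5.86% held a molar pSmad1/5 summit, 3.69% a limb pSmad1/5, 0.909% a molar Smad4 and 5.60% a limb Smad4 summit. The 4 windows with the nearest summits are printed 5′ to 3′ to show what lies beside these sites, with capitals for matches on either strand to motifs that Smads are known to bind, the palindrome GGCGCC, the related GGAGCC and the Smad box CAGAC. The Hoxa6 window shares 3 bases with a molar pSmad1/5 peak whose summit is 83 bp past the start (score 3.36). At Hoxa7 the nearest summit is a molar pSmad1/5 summit 317 bp before the start (score 2.09), at Hoxd8 the limb Smad4 summit named above and at Hoxd3 a molar pSmad1/5 summit 426 bp before the start (score 3.10).
Hoxa6 promoter, chr6:52208623-52208922, minus strand: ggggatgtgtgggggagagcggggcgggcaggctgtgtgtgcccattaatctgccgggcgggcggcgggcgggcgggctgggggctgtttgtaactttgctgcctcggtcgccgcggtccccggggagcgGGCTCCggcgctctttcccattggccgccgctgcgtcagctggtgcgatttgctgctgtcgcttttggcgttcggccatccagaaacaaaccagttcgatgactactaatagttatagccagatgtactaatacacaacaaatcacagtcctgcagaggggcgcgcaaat
Hoxa7 promoter, chr6:52218524-52218823, minus strand: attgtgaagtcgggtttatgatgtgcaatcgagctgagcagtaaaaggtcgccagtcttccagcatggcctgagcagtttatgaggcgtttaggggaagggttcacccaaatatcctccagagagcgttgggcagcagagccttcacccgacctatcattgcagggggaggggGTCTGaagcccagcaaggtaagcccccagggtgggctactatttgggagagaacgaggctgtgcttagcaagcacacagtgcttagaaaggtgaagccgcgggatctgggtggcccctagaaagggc
Hoxd8 promoter, chr2:74704365-74704664, plus strand: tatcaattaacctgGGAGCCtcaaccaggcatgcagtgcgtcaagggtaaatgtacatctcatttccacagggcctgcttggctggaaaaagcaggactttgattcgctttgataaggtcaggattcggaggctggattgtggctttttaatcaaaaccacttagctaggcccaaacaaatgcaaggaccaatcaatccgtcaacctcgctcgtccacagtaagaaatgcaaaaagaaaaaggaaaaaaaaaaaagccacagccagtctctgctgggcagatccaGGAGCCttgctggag
Hoxd3 promoter, chr2:74711743-74712042, plus strand: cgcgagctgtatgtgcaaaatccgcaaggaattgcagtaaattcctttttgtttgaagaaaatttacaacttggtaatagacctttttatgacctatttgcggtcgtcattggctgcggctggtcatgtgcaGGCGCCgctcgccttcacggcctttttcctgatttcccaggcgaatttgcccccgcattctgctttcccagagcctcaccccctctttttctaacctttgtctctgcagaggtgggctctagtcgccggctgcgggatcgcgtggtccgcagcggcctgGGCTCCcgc

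The BMP-type element GGCGCC stood in 5 of the 24 Hox windows (20.8%) and in 11.9% of all 32851 windows of the table. GGAGCC, read on both strands, stood in 10 (41.7%) against 30.8%, and CAGAC in 9 (37.5%) against 49.6%. The palindrome GTCTAGAC stood in 0, against 0.213% of all windows. No motif contains another, each was searched on both strands, and a match is a description of the window only.

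The clusters also carry noncoding genes. Of the 17 chosen, 16 were found in the annotation, and 13 had a molar pSmad1/5 summit within 10 kb, 12 a limb pSmad1/5, 6 a molar Smad4 and 13 a limb Smad4 summit. Over all protein-coding genes the shares were 54.2%, 47.9%, 44.3% and 52.3% in the same order, and the 6 for molar Smad4 were near that background. The highest-scoring limb Smad4 peak of HoxB (score 6.21) lay 1258 bp from the Mir196a-1 hairpin, between Hoxb9 and Hoxb13. The highest-scoring molar pSmad1/5 peak of HoxC (score 4.74) lay 864 bp from Mir196a-2, between Hoxc10 and Hoxc9. Mir196b in HoxA had its nearest summit, a molar Smad4 one, at 2503 bp. Mir10b in HoxD had a molar pSmad1/5 summit at 1418 bp and Mir10a in HoxB a limb Smad4 summit at 2263 bp. These microRNAs repress Hox messages, and their 5p mature forms fall into 2 groups of shared seed, bases 2 to 8, shown in capitals in the RefSeq sequences.
miR-196a-5p: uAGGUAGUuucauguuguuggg
miR-196b-5p: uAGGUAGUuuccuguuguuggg
miR-10a-5p: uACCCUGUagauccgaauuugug
miR-10b-5p: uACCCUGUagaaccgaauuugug
Mir196a-1 and Mir196a-2 give the same mature miR-196a-5p. Hottip, a noncoding gene next to Hoxa13, had 3 molar pSmad1/5, 1 limb pSmad1/5, 1 molar Smad4 and 0 limb Smad4 summits within 10 kb. Hotair in HoxC had 0 molar pSmad1/5, 1 limb pSmad1/5, 1 molar Smad4 and 6 limb Smad4 summits.

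Long-range limb enhancers of HoxD and HoxA lie in the flanking gene deserts, most of which is beyond the 50 kb used here. The desert on the posterior side of HoxD, from Atp5g3 to Evx2 (740.5 kb), held 2 molar pSmad1/5, 4 limb pSmad1/5, 1 molar Smad4 and 2 limb Smad4 peaks. Its density was 0.334, 0.456, 0.365 and 0.187 times that of chromosome 2 in that order, and for limb Smad4 the interval stayed under 1 (0.0226 to 0.675). The anterior desert, from Mtx2 to Hnrnpa3 (782.4 kb), held 7, 7, 3 and 3 peaks, with limb Smad4 at 0.265 times the chromosomal density (0.0547 to 0.775). The posterior side of HoxA, from Evx1 to Jazf1, held 13, 5, 8 and 4 peaks at 1.39, 1.29, 1.25 and 0.838 times the density of chromosome 6. The stretch from Skap2 to Snx10 on the anterior side of HoxA held 3, 4, 5 and 7 peaks, with limb Smad4 at 2.46 times that density (0.987 to 5.06).

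Hox proteins bind DNA with the TALE homeodomain cofactors of the Pbx, Meis and Pknox families. Of these 9 genes, 8 had a molar pSmad1/5 summit within 10 kb, 9 a limb pSmad1/5, 5 a molar Smad4 and 4 a limb Smad4 summit, where the shares over all genes were 54.2%, 47.9%, 44.3% and 52.3%. Meis1 had 0 molar and 3 limb pSmad1/5 summits and Meis2 had 1 and 6. Of 11 regulators of the clusters, the Cdx genes, Kmt2a and Polycomb genes, 8, 8, 4 and 6 had a summit in the same order of lists. Bmi1 had 2 molar and 3 limb pSmad1/5 summits, and Eed and Rnf2 had none in any list.

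The limit of 50 kb set the outermost peaks. Just inside lay a molar pSmad1/5 peak 49863 bp from the posterior end of HoxA (score 2.44) and a limb Smad4 peak 49643 bp from the anterior end of HoxC (4.50). Just outside lay a molar pSmad1/5 peak at 51723 bp from HoxA (2.22) and a molar Smad4 peak at 50756 bp from the anterior end of HoxD (4.68).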

How the data were processed

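ChIP-seq peak lists of 4 libraries were used, 1 for each of pSmad1/5 and Smad4 in molar tooth germ and limb. BCP, run in transcription factor mode per the labels, gave the peaks, and the authors deposited for each a position, length, summit, enrichment score and p-value. The build is mm10, per the submitters' processing notes, which also name bcl2fastq, Bowtie2, SAMtools, bedtools and deepTools. For input and duplicate handling, steps are not given in the sources used here. The deposited score, of unstated scaling, served to rank and filter peaks. The deposited p-value, under 0.001 for every peak, was used in no test. Read depth is unknown, so the number of peaks limits precision and is no measure of bound protein.

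RefSeq tables on GRCm38.p6, the assembly that mm10 names, gave gene positions, promoters and microRNAs. Hox starts came from the promoter table for 22 named genes and otherwise from the annotated end on the strand of their cluster. A summit was placed at the nearest gene interval, the shortest where genes are nested. Shares carry exact (Clopper-Pearson) 95% binomial intervals and density ratios exact Poisson intervals. No p-value was computed. Chromosome length was taken as the largest coordinate of a gene or peak.

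Members, lists and the naming rule (genes at the highest-scoring peaks, at summits within 1 kb, at sites of 2 or more lists, or with no peak) were chosen with earlier results of these data known. In addition, 1 Hox gene is counted but not reported here by name. Alternatives were a score of at least 4, equal numbers of top peaks per chromosome, flanks of 0 and 100 kb, other placements and other distances, with a score of at least 3 added after seeing the data. Counting was tested on simulated data. Intervals came from scipy 1.17.1, tables from pandas 2.3.3 with numpy 2.4.6, and plots from matplotlib 3.10.9, all under Python 3.11.15.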

Additional observations from a re-analysis of the deposited data

Results flagged for a closer look

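The molar minus limb difference in number of peaks had opposite signs for the 2 antibodies in every Hox region over all listed peaks, with 1 library on each side, and the difference between antibodies was not tested. For pSmad1/5 it was 28 over the 4 regions, and 16 in HoxA, 5 in HoxB, 2 in HoxC and 5 in HoxD. For Smad4 it was -29 over the 4 regions, and -5 in HoxA, -12 in HoxB, -7 in HoxC and -5 in HoxD. The lowest listed score moves with part of this: it is 2 for molar and 3 for limb pSmad1/5 on the HoxA chromosome, and 4 for molar and 3 for limb Smad4 on the HoxB and HoxD chromosomes. On the HoxC chromosome, where all 4 lists start at 3, there were 6 molar and 4 limb pSmad1/5 peaks and 5 molar and 12 limb Smad4 peaks. At a score of at least 3 the pSmad1/5 peaks numbered 8 in molar and 6 in limb in HoxA, and 38 and 24 over the 4 regions. HoxB kept the opposite signs at that score, with 12 molar and 7 limb pSmad1/5 peaks and 1 molar and 13 limb Smad4 peaks. It lost them under the other filters. At a score of at least 4 it had 2 molar and 4 limb pSmad1/5 peaks and 1 Smad4 peak in each tissue, and with equal numbers of top peaks 8 molar and 4 limb pSmad1/5 peaks and again 1 Smad4 peak in each.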

How the results depend on the processing

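Of 130 alternative values, 96 stayed within 1.5 times the reported count or within its counting interval. That number is no measure of stability, because part of it could hardly move. Overlap counts made up 31 of the 96, many of them 0 in both settings. A score of at least 3 removed no limb pSmad1/5, molar Smad4 or limb Smad4 peak from the regions, since these lists start at 3 or 4 there. With a score of at least 4 the peaks in the regions numbered 9 for molar pSmad1/5, 4 for limb pSmad1/5, 4 for molar Smad4 and 9 for limb Smad4. The members with a summit within 10 kb then numbered 19, 4, 6 and 8, the posterior share of limb pSmad1/5 was 25%, and the overlaps of molar pSmad1/5 and of limb pSmad1/5 with limb Smad4 fell to 0 and 0. With equal numbers of top peaks per chromosome the peaks numbered 33, 13, 7 and 19. The members then numbered 16 for limb pSmad1/5, 7 for molar Smad4 and 14 for limb Smad4, and the overlaps with limb Smad4 were 1 for molar and 0 for limb pSmad1/5. Both filters hold fewer peaks by construction. With a flank of 0 kb the density ratio was 7.66 for molar pSmad1/5 and 4.05 for limb Smad4, and 1 molar pSmad1/5 peak overlapped limb Smad4. With a flank of 100 kb, 2 limb pSmad1/5 peaks overlapped limb Smad4. With groups 10 to 13 as posterior the shares were 36.5% for molar and 25% for limb pSmad1/5. With summits within 100 bp, 1 molar pSmad1/5 peak met limb pSmad1/5. With summits within 500 bp, 3 molar pSmad1/5 peaks met limb pSmad1/5, 11 molar and 3 limb pSmad1/5 peaks met limb Smad4, and 1 molar Smad4 peak met limb Smad4. Within 50 kb, 25 members had a molar Smad4 summit. Within 1 kb, 13 had a limb pSmad1/5 and 6 a molar Smad4 summit. A score of at least 3, chosen after seeing the data, left 38 molar pSmad1/5 peaks. The cause of these changes was not tested beyond the fewer peaks. No paired analysis was possible because each group has 1 library. Peak numbers limit every share, and read depth is unknown.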
